A study of Mus musculus with 12 samples.

Results

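The 10 genes described here encode the liver enzymes that make, use and regenerate the methyl donor S-adenosylmethionine and that handle betaine and homocysteine. They were taken by gene symbol from the annotation of the array, which assigned 13 probe sets to them, and all 10 were among the 13598 genes tested. Of the 10 genes 7 had 1 probe set, and Bhmt2, Cbs and Sardh had 2 each. The arrays held liver RNA of 12 males aged 6 to 12 weeks, 3 per group, sampled at ZT14, which is 14 h after lights on in a cycle of 12 h light and 12 h dark. The groups were untreated wild-type mice, wild-type mice fed bezafibrate (a fibrate drug that activates the nuclear receptor PPARα), PPARα-null mice fed bezafibrate, and Clk/Clk mice fed bezafibrate, which carry a mutation of the clock gene Clock. The drug was given at 0.5% (w/w) of the diet for 5 days. Wild-type and Clk/Clk mice had a Jcl:ICR background, whereas the null mice came from a cross of the 129S4SvJae-PPARalphatm1Gonz/J line with Jcl:ICR, so strain background and the Ppara allele cannot be told apart. No untreated mutant mice were analysed here, so a mutant's baseline and its response to the drug cannot be told apart either. The study asks which PPARα-regulated liver genes depend on CLOCK.

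In the methionine cycle, Mat1a joins methionine to ATP to give S-adenosylmethionine. Methyltransferases such as Gnmt spend it, and Ahcy splits the product S-adenosylhomocysteine into homocysteine and adenosine. Homocysteine is then either remethylated to methionine or passed through Cbs and Cth to cysteine, a route called transsulfuration. Choline is the source of betaine through the mitochondrial enzyme Chdh, Bhmt uses betaine to remethylate homocysteine, and the dimethylglycine left over is demethylated in mitochondria by Dmgdh and then Sardh to glycine. The liver is the main organ for these reactions.

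Bhmt, Bhmt2 and Dmgdh lie next to each other, in that order, on mouse chromosome 13, and Bhmt2 and Dmgdh are transcribed away from each other. The RefSeq promoter table (GRCm38.p6; 250 bases before to 50 after a transcription start) held windows for 8 of the 10 genes, 10 windows in all because Chdh had 3. The windows of Bhmt2 and Dmgdh overlapped by 233 bases, in which the starts lay 134 bases apart. This shared stretch is shown because 2 members are read from it, and its 2 capitals mark the first base of Bhmt2 (nearer the left, read leftwards) and of Dmgdh (read rightwards).
Bhmt2 and Dmgdh, chr13:93674253-93674485, plus strand: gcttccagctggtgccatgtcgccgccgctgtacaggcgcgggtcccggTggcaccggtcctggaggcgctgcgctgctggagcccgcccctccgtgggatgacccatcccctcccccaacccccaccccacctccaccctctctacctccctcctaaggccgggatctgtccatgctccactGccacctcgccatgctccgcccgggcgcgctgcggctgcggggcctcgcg
The Bhmt window is shown because Bhmt moved most, and its capitals mark the hexamer AGGTCA, to which nuclear receptors bind in pairs or singly.
Bhmt, chr13:93637709-93638008, minus strand: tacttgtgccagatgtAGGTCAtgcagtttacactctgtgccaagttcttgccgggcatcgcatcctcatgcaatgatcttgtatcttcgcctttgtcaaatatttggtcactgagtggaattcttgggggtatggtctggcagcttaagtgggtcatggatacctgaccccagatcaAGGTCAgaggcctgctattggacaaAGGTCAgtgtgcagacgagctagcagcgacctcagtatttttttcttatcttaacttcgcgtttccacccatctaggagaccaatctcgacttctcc
The Cbs window is shown because Cbs was the only member called between the mutants in the main limma fit. The capitals of this window mark CACGTG, the E-box bound by CLOCK and its partner BMAL1.
Cbs, chr17:31637156-31637455, minus strand: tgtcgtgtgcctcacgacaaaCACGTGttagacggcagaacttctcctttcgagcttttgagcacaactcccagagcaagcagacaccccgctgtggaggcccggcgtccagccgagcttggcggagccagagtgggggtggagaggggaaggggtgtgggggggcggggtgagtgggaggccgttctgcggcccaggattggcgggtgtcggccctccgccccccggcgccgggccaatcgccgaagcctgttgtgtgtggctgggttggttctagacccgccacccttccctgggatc

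The AGGTCA hexamer, the E-box, the DR1 element and a C/EBP-type sequence were searched on both strands of these windows. AGGTCA was found in 4 of the 10 windows (Ahcy, Bhmt, Gnmt and Sardh) and in 16.3% of all 32851 promoter windows. The Bhmt window held 3 copies, a number reached or exceeded in 0.183% of all windows. CACGTG was found in 1 member window, that of Cbs, and in 7.15% of all windows. DR1, the element that PPARα binds with RXR, was searched as AGGTCA repeated after any 1 base, so it contains the first hexamer. It was in none of the member windows and in 0.0396% of all. TTGCNNAA, the C/EBP-type sequence, was in none of them and in 10.8% of all. These matches describe the letters of short windows and not binding, which was not measured.

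Precision rests on 3 mice per group with 8 residual degrees of freedom, since arrays have no sequencing depth. Pairs of arrays correlated over all probe sets at 0.993 to 0.996 within a group and 0.969 to 0.990 between groups, and the labels name no array batch. The Ppara signal averaged 10.78 in treated wild-type and 9.88 in null mice, and the Clock signal 8.17 in treated wild-type and 9.25 in Clk/Clk mice. No source used here places these probes with respect to either allele, so the values check neither genotype. The PPARα targets Cyp4a14 and Ehhadh were also high in the treated null mice, although less than in the other treated groups. Cyp4a14 had means of 9.17, 14.25, 13.02 and 14.34 in untreated wild-type, treated wild-type, null and Clk/Clk mice, and its null values of 12.37 to 13.50 lay above the untreated values of 8.48 to 10.44. Ehhadh had means of 11.81, 14.41, 13.53 and 14.48 in the same order.

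Most of these genes fell in wild-type liver with bezafibrate. Of the 10 genes 8 fell, 1 rose (Chdh) and 1 did not pass the test (Mat1a), where a call needed an adjusted p under 0.05 (limma, Benjamini-Hochberg over all genes) and a difference of at least 1.5-fold. Over all genes tested, 20.6% were called either way and 7.77% were called lower. The median difference of the 10 genes was -0.92 on the log2 scale, beside 0.01 over all genes. In all 10 genes the 3 treated mice lay wholly above or below the 3 untreated mice, as they did in 56.3% of all genes. All levels below are log2 values of one probe set, the brightest of each gene, and levels of different genes are not compared. In whole liver, fewer cells of a type and less RNA per cell cannot be told apart.

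**Figure D1:**
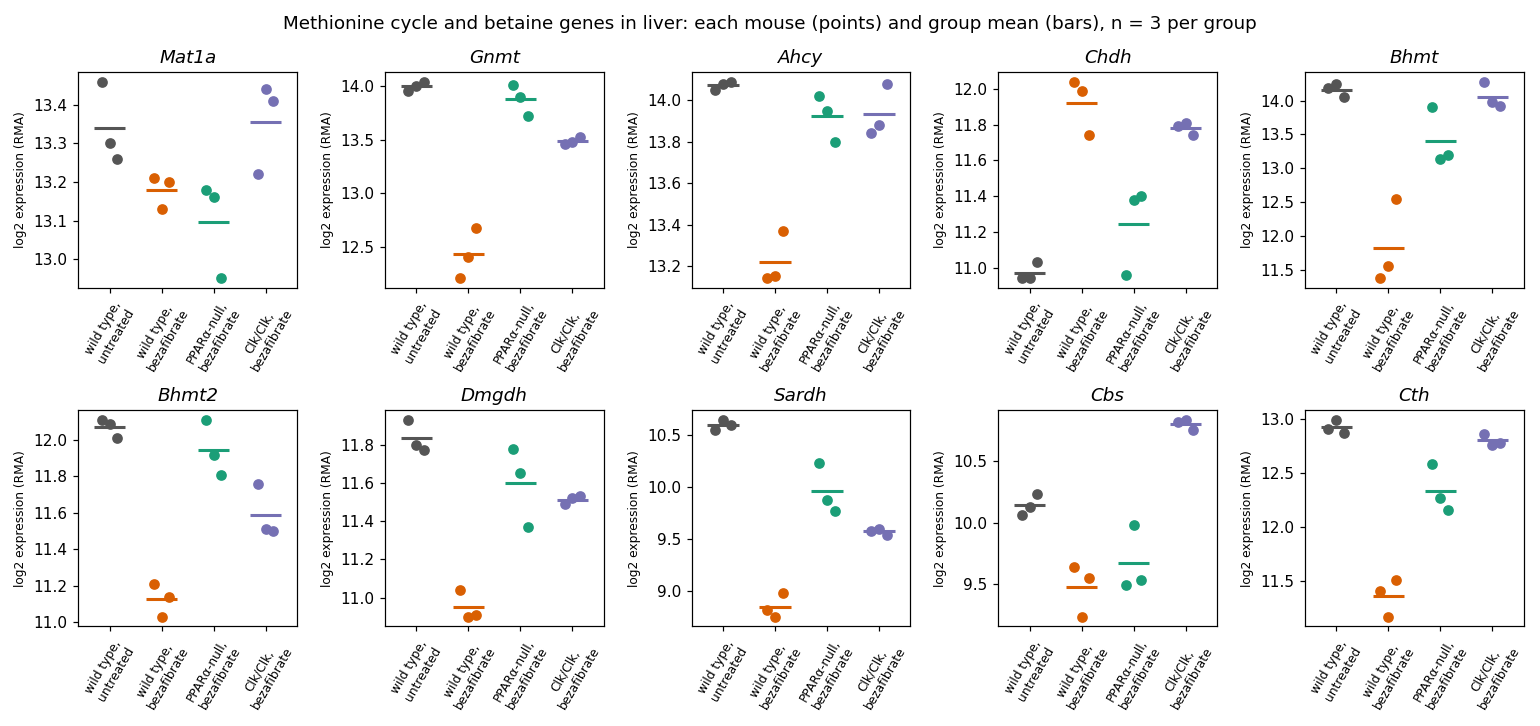
Log2 expression (vertical axes, each with its own range) of the 10 genes in every mouse (points) of the 4 groups, with group means as bars, n = 3 per group. In Gnmt, Ahcy, Bhmt, Bhmt2, Dmgdh, Sardh and Cth the treated wild-type mice lie below all other mice, whereas Chdh has its lowest mean in untreated mice and Cbs is highest in Clk/Clk mice.

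The enzymes that make and spend S-adenosylmethionine moved unequally. Gnmt, which consumes it by methylating glycine to sarcosine, read 13.95, 14 and 14.04 in the untreated mice and 12.21, 12.41 and 12.68 in treated wild type. It fell by 1.57 (SE 0.11, 2.96-fold, adjusted p = 7.82e-07), and the groups did not overlap. In treated PPARα-null mice it read 14.01, 13.90 and 13.72, and in treated Clk/Clk mice 13.46, 13.48 and 13.53. Both mutants therefore stood above treated wild type, by 1.44 (SE 0.11, adjusted p = 3.02e-06) and 1.06 (SE 0.11, adjusted p = 1.19e-04). Null mice differed from untreated wild type by -0.12 (adjusted p = 0.47) and overlapped it. Clk/Clk mice lay below untreated wild type without overlap, by -0.51 (1.42-fold, adjusted p = 0.00279), which is under the 1.5-fold minimum.

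Ahcy, the hydrolase of S-adenosylhomocysteine, read 14.05, 14.08 and 14.09 in untreated mice and 13.14, 13.15 and 13.37 in treated wild type. It fell by 0.86 (SE 0.0897, 1.81-fold, adjusted p = 1.54e-05). It was higher than in treated wild type in null mice (14.02, 13.95 and 13.80), by 0.70, and in Clk/Clk mice (13.84, 13.88 and 14.08), by 0.71 (adjusted p = 1.26e-04 and 3.75e-04). The mutants' means, 13.92 and 13.93, did not differ beyond their spread. Mat1a, the synthase itself, stayed within a narrow range. It read 13.46, 13.30 and 13.26 untreated, 13.21, 13.13 and 13.20 in treated wild type, 13.18, 13.16 and 12.95 in null and 13.22, 13.44 and 13.41 in Clk/Clk mice. The drug difference of Mat1a was -0.16 (95% interval -0.35 to 0.04, adjusted p = 0.167), so a fall as large as that of Ahcy lies outside the interval. Against treated wild type, Mat1a differed by -0.08 in null mice (adjusted p = 0.494) and by 0.18 in Clk/Clk mice (adjusted p = 0.172). The levels of Mat1a, Ahcy, Gnmt and Bhmt lay near the top of the scale, whose highest value was 15, and any compression of their differences was not tested.

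The betaine branch began with the one rise. Chdh, which oxidizes choline on the way to betaine, read 10.94, 10.94 and 11.03 in untreated mice and 12.04, 11.99 and 11.74 in treated wild type. It rose by 0.95 (SE 0.115, 1.93-fold, adjusted p = 4.48e-05). Null mice read 10.96, 11.38 and 11.40, of which the first lay within the untreated range, and were lower than treated wild type (-0.68, SE 0.115, adjusted p = 9.54e-04). That call was lost without null mouse 1, where the difference was -0.53. Clk/Clk mice read 11.79, 11.81 and 11.74 and overlapped treated wild type, at a difference of -0.14 (95% interval -0.40 to 0.11, adjusted p = 0.396). They were higher than untreated wild type by 0.81 (SE 0.115, adjusted p = 1.48e-04). Chdh had 1 probe set, of a type (suffix _s_at) that can match several transcripts.

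Bhmt, which remethylates homocysteine with betaine, had the largest difference of the 10 genes. It read 14.19, 14.24 and 14.05 in untreated mice and 11.37, 11.56 and 12.54 in treated wild type, and fell by 2.33 (SE 0.276, 5.04-fold, adjusted p = 3.69e-05). Treated mouse 3 stood apart from the other treated mice but still below every mouse of the other groups. Null mice read 13.90, 13.13 and 13.19, higher than treated wild type by 1.58 (SE 0.276, adjusted p = 0.00109). Clk/Clk mice read 14.28, 13.98 and 13.92, higher by 2.23 (SE 0.276, 4.71-fold, adjusted p = 3.30e-04). They overlapped untreated wild type, at a difference of -0.10 (adjusted p = 0.798). The null mice lay below untreated wild type without overlap, by -0.75 (adjusted p = 0.0741), which did not pass. Without null mouse 1 this difference was -1.0 (adjusted p = 0.0297), and the difference of Clk/Clk from null mice changed from 0.65 (adjusted p = 0.0862) to 0.90 (adjusted p = 0.0284).

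Bhmt2, a relative of Bhmt that uses S-methylmethionine in place of betaine, moved less. It read 12.11, 12.09 and 12.01 untreated and 11.21, 11.03 and 11.14 in treated wild type, and fell by 0.94 (SE 0.0956, 1.92-fold, adjusted p = 1.18e-05). Null mice read 12.11, 11.92 and 11.81 and were higher than treated wild type by 0.82 (adjusted p = 6.54e-05). Clk/Clk mice read 11.76, 11.51 and 11.50, between the treated and untreated wild type and overlapping neither. They differed from treated wild type by 0.46 (1.38-fold, adjusted p = 0.00543) and from untreated by -0.48 (1.40-fold, adjusted p = 0.00154), both under the 1.5-fold minimum. On its second probe set Bhmt2 fell by 0.61 and differed by 0.55 in null mice, which is under that minimum.

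Dmgdh and Sardh, the mitochondrial enzymes that take methyl groups off dimethylglycine and sarcosine, both fell with the drug. Dmgdh read 11.93, 11.80 and 11.77 untreated and 11.04, 10.90 and 10.91 in treated wild type, and fell by 0.89 (SE 0.0969, adjusted p = 2.08e-05). It was higher in null mice (11.78, 11.65 and 11.37) by 0.65 (adjusted p = 3.64e-04), a call lost without null mouse 1 (0.56). In Clk/Clk mice (11.49, 11.52 and 11.53) it differed by 0.57 (1.48-fold, adjusted p = 0.00194), just under the minimum fold, and by 0.61 without treated wild-type mouse 1, where it passed. Beside its head-to-head neighbour Bhmt2, Dmgdh had drug differences of -0.89 against -0.94 (-0.61 on the other Bhmt2 probe set), null differences of 0.65 against 0.82 and Clk/Clk differences of 0.57 against 0.46. Sardh read 10.55, 10.65 and 10.60 untreated and 8.81, 8.75 and 8.98 in treated wild type, and fell by 1.75 (SE 0.107, 3.37-fold, adjusted p = 2.63e-07). Its other probe set fell by 1.31. Sardh read 10.23, 9.88 and 9.77 in null mice and 9.58, 9.60 and 9.54 in Clk/Clk mice, higher than in treated wild type by 1.11 (adjusted p = 1.55e-05) and 0.72 (adjusted p = 8.58e-04).

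Sardh was the only one of the 10 genes called lower than in untreated wild type in both mutants. It was below untreated wild type by -0.64 in null mice (SE 0.107, adjusted p = 0.00202) and by -1.03 in Clk/Clk mice (SE 0.107, adjusted p = 1.36e-05). The first of these calls was lost without null mouse 3 (-0.54) and with the mean of its probe sets (-0.56). Both calls rest on the brightest probe set. On the other Sardh probe set the means were 10.17 untreated, 9.68 in null and 9.60 in Clk/Clk mice. Both mutants lay lower there too, but by less and under the 1.5-fold minimum.

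Of the transsulfuration enzymes, Cbs was called different between the mutants, and Cth differed there by less than the minimum fold. Cbs, which condenses homocysteine with serine, read 10.06, 10.13 and 10.23 untreated and 9.64, 9.23 and 9.55 in treated wild type. It fell by 0.67 (SE 0.134, 1.59-fold, adjusted p = 0.00165), and by 0.54 without treated wild-type mouse 2, which is under the minimum fold. Null mice read 9.49, 9.98 and 9.53 and overlapped treated wild type, at a difference of 0.19 (95% interval -0.10 to 0.49, adjusted p = 0.297). Clk/Clk mice read 10.82, 10.84 and 10.76, above every other mouse. They were higher than treated wild type by 1.33 (SE 0.134, 2.51-fold, adjusted p = 1.04e-04), than untreated wild type by 0.66 (SE 0.134, adjusted p = 0.00174) and than null mice by 1.14 (SE 0.134, adjusted p = 5.43e-05). Cbs was the only one of the 10 genes called between the mutants in the main limma fit. Chdh differed between them by 0.53 (adjusted p = 0.00356), under the minimum fold, and passed without null mouse 2 (0.60) or null mouse 3 (0.61). Bhmt passed without null mouse 1. Other genes went the other way, also under the minimum fold. Gnmt (-0.38, adjusted p = 0.0172), Bhmt2 (-0.36, adjusted p = 0.0114) and Sardh (-0.39, adjusted p = 0.0137) were lower in Clk/Clk than in null mice, without overlap. Mat1a was higher by 0.26 (adjusted p = 0.0383). The second probe set of Cbs gave -0.60, 0.27 and 1.17 for the drug, null and Clk/Clk comparisons, against -0.67, 0.19 and 1.33. On that probe set Clk/Clk mice averaged 9.01 and untreated mice 8.44, without overlap but under the minimum fold. The brightest Cbs probe set has the suffix _s_at, as that of Chdh does, and the second has the suffix _a_at.

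Cth, which cleaves cystathionine to release cysteine, read 12.91, 12.99 and 12.87 untreated and 11.41, 11.17 and 11.51 in treated wild type. It fell by 1.56 (SE 0.111, 2.96-fold, adjusted p = 8.15e-07). Null mice read 12.58, 12.27 and 12.16, higher than treated wild type by 0.97 (adjusted p = 5.57e-05) and lower than untreated (-0.59, 1.51-fold, adjusted p = 0.00373). The latter call was lost without null mouse 2 (-0.56) or 3 (-0.51) or untreated mouse 2 (-0.56). Clk/Clk mice read 12.86, 12.76 and 12.78, higher than treated wild type by 1.44 (adjusted p = 2.41e-05), and differed from untreated by -0.13 (adjusted p = 0.382). They lay above the null mice without overlap, by 0.46 (1.38-fold, adjusted p = 0.00641), which is under the minimum fold.

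In null mice 7 of the 10 genes were higher than in treated wild type and 1, Chdh, was lower. Over all genes 13.4% were called either way, 5.35% higher and 8.09% lower, and the median difference was 0.76 for the 10 genes and 0.01 for all. The null mice did not overlap treated wild type in 8 of the 10 genes and in 48.6% of all genes. In Clk/Clk mice 6 of the 10 genes were higher and 0 lower by limma. Bhmt2 and Dmgdh passed the adjusted p there but not the minimum fold, and 0 were lower at an unadjusted p under 0.05. Over all genes 9.13% were called there, 2.64% higher and 6.49% lower, with medians of 0.72 for the 10 genes and 0.02 for all. These mice did not overlap treated wild type in 9 of the 10 genes and in 42.3% of all. The treated wild-type mice enter all 3 comparisons, so any departure of those mice enters each of them. Against untreated wild type, 2 of the 10 genes were lower in null mice (Cth and Sardh) and 0 higher by limma, where 6.65% of all genes were called, 3.96% higher and 2.69% lower. At an unadjusted p under 0.05 by limma, Chdh was also higher (0.28), and Mat1a (-0.24), Bhmt (-0.75), Cbs (-0.47) and Dmgdh (-0.23) were also lower. The groups did not overlap in 6 of the 10 genes and in 39.4% of all. In Clk/Clk mice, against the same controls, Cbs and Chdh were higher and Sardh was lower, where 19.5% of all genes were called, 10.6% higher and 8.82% lower. Gnmt (-0.51, adjusted p = 0.00279), Bhmt2 (-0.48, adjusted p = 0.00154) and Dmgdh (-0.32, adjusted p = 0.0181) were also lower there by limma, but under the minimum fold. There the groups did not overlap in 7 of the 10 genes and in 55.2% of all. Between the mutants, 1 of the 10 genes was called higher in Clk/Clk mice (Cbs), where 15.2% of all genes were called, 7.43% higher and 7.78% lower, and 8 of the 10 genes and 50.9% of all did not overlap.

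**Figure D2:**
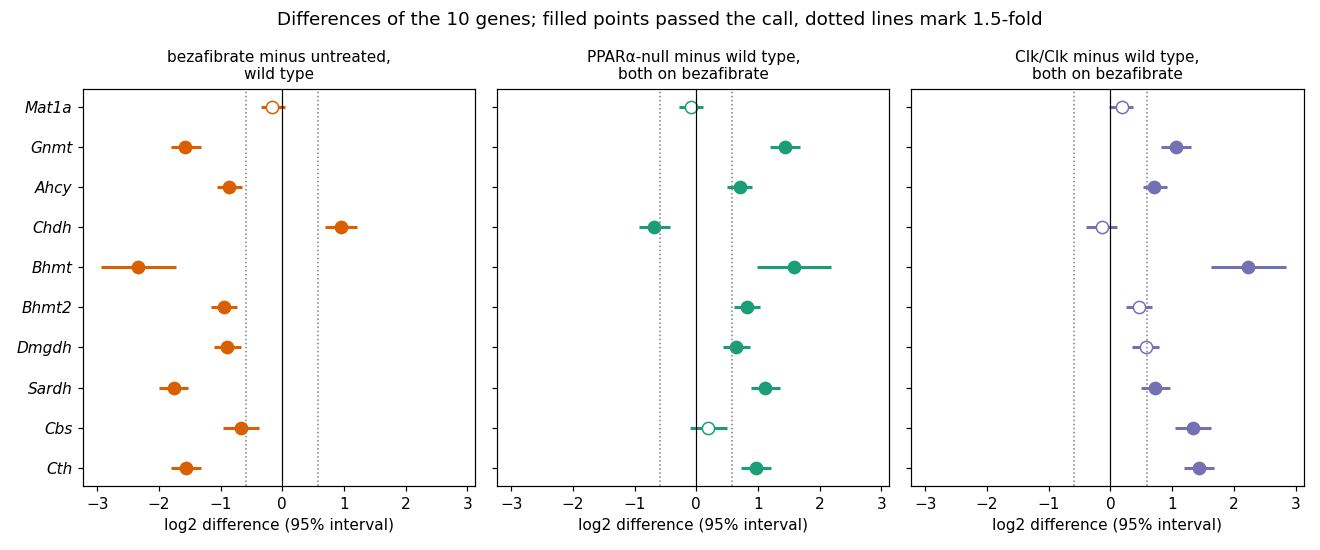
Log2 differences (horizontal axis) of the 10 genes with 95% intervals in the drug comparison and in both mutant comparisons, n = 3 mice per group. Filled points passed the call, open points did not, and dotted lines mark 1.5-fold. Mat1a is open in all 3 panels, Chdh lies opposite to the other filled points in the first and second panels, and Cbs is open in the null panel only.

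Branch means give each mouse's position over several genes, but their members did not all move alike. Chdh, which moved the opposite way with the drug, was left out of the betaine branch mean. The mean of Bhmt, Bhmt2, Dmgdh and Sardh, set to 0 at the untreated mean, was -1.56, -1.61 and -1.27 in treated wild type, -0.16, -0.52 and -0.63 in null and -0.39, -0.51 and -0.54 in Clk/Clk mice. The mean of Mat1a, Gnmt and Ahcy was -0.95, -0.91 and -0.72, then -0.07, -0.13 and -0.32, then -0.30, -0.20 and -0.13 in the same groups. The mean of Cbs and Cth was -1.01, -1.33 and -1.0 in treated wild type, -0.50, -0.41 and -0.69 in null and 0.31, 0.27 and 0.24 in Clk/Clk mice. This last mean combines, in Clk/Clk mice, Cbs, called above untreated wild type (0.66), with Cth, whose 3 mice all lay below it (-0.13).

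**Figure D3:**
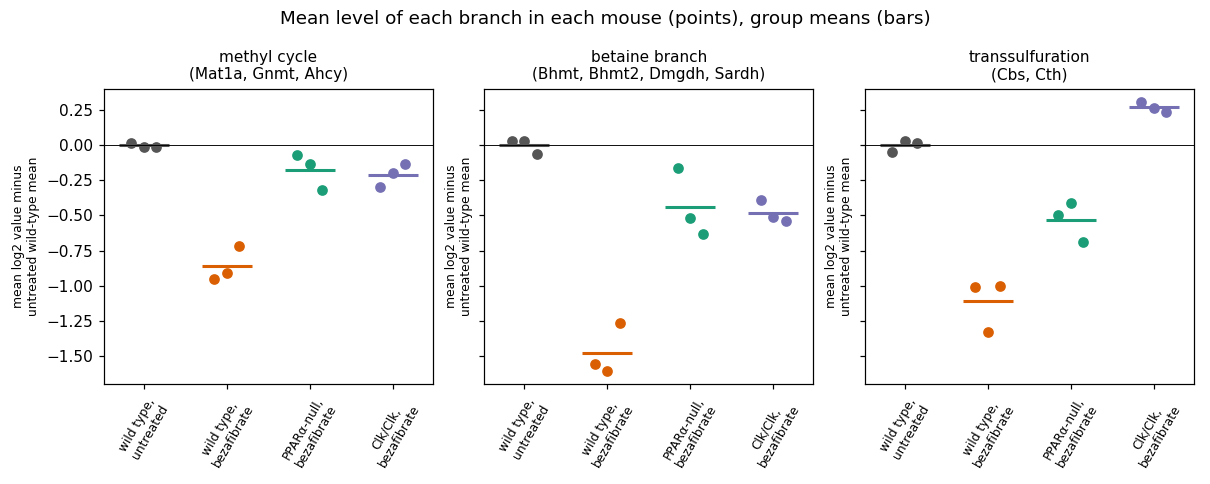
Mean log2 value of each branch minus its untreated wild-type mean (vertical axis) in each mouse (points) of the 4 groups, with group means as bars, n = 3 per group. Treated wild-type mice lie lowest in all 3 branches, and Clk/Clk mice lie above untreated mice in transsulfuration, a mean of Cbs (higher) and Cth (not higher). Chdh is in no branch mean.

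Within some groups the same mouse was highest or lowest in several of these genes. Among null mice, mouse 1 was highest in 8 of the 10 genes and lowest in the other two, Cbs and Chdh, while mouse 3 was lowest in 7. Among treated wild-type mice, mouse 3 was highest in Gnmt, Ahcy, Bhmt, Cth and Sardh and lowest in Chdh, while mouse 1 was highest in the other 5 genes. In untreated and in Clk/Clk mice no mouse was highest in more than 4 genes. No such count was made over all genes. The widest spread was that of Bhmt, with a range of 1.17 in treated wild type and 0.77 in null mice, beside a median range over the 10 genes of 0.27 and 0.41. In untreated and in Clk/Clk mice the median range was 0.11 and 0.09.

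The neighbours of the chromosome 13 genes did not all share their differences. Jmy, on the Bhmt side, fell by 0.70 with the drug (adjusted p = 8.54e-04), but the mean of its probe sets differed by -0.16 (adjusted p = 0.0734). Arsb, on the Dmgdh side, differed by 0.55 (adjusted p = 0.0162), under the minimum fold, and was lower in Clk/Clk mice (-0.79, adjusted p = 0.0054). Without treated wild-type mouse 1 or untreated mouse 2 the drug difference of Arsb passed, at 0.64 and 0.76. Further out, Homer1 (-0.13) and Lhfpl2 (-0.07) did not pass, whereas Scamp1 fell by 1.10 (adjusted p = 1.24e-05).

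**Figure D4:**
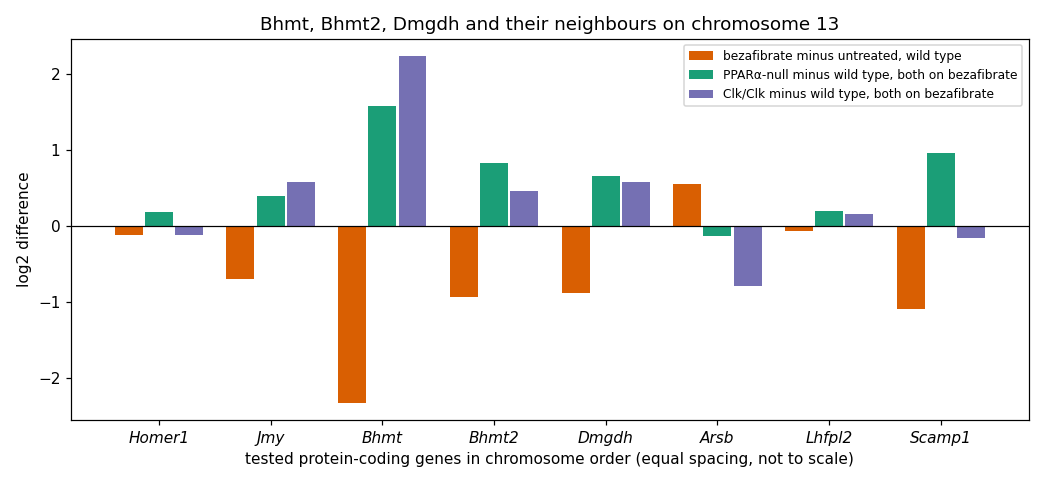
Log2 differences (vertical axis) of Bhmt, Bhmt2, Dmgdh and the tested protein-coding genes on either side on chromosome 13, in chromosome order, for the drug comparison and both mutant comparisons, each bar 1 fitted difference with n = 3 mice per group. Arsb, next to Dmgdh, lies on the opposite side of 0 from the 3 members in each comparison.

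The other genes of these pathways did not move one way. Of 78 tested genes in 6 lists around the 10 members, 16 rose and 13 fell with the drug, with a median difference of 0.05. In null mice 13 were higher and 15 lower than in treated wild type (median 0.01), and in Clk/Clk mice 5 were higher and 7 lower (median 0.03). Over all genes tested, 12.8% rose and 7.77% fell with the drug. In null mice 5.35% of all genes were higher and 8.09% lower, and in Clk/Clk mice 2.64% and 6.49%. The same shares stand beside the list and marker counts below. Up to 3 called genes are named per list and comparison, so a gene named for a single comparison can also be called in others.

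In the list of cysteine, taurine, glutathione and sulfide genes 4 fell and 2 rose among 16. Cdo1, the dioxygenase that starts cysteine breakdown and taurine synthesis, fell by 2.09 (SE 0.105, adjusted p = 6.73e-08) and was higher by 1.73 in null and 1.46 in Clk/Clk mice. Csad, the decarboxylase that acts after Cdo1 on the way to taurine, rose by 2.09 (SE 0.22, adjusted p = 1.6e-05), and was named after its value was seen. Against treated wild type, Csad differed by -0.26 in null mice (adjusted p = 0.384) and by 0.04 in Clk/Clk mice (adjusted p = 0.911), and neither passed. Sqor, which oxidizes sulfide in mitochondria, fell by 1.28 (adjusted p = 8.63e-08). Ggct, of glutathione turnover, rose by 2.40 on its brightest probe set and differed by -0.027 when suffix probe sets were left out. Got1, a transaminase that also accepts cysteine sulfinate, fell by 2.33 and was higher by 2.94 in null and 1.56 in Clk/Clk mice.

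Among 16 other choline, betaine and glycine genes 3 rose and 3 fell. Pipox, the peroxisomal oxidase that also turns sarcosine into glycine, fell by 2.04 (SE 0.105, adjusted p = 7.65e-08). It was higher by 1.49 in null and 0.87 in Clk/Clk mice. Chkb, a choline kinase, rose by 2.39 and was lower in null mice (-2.59). Etfdh, the flavoprotein dehydrogenase that takes up the electrons of Dmgdh and Sardh, rose by 0.98 and was lower in null mice (-1.35). In Clk/Clk mice Gldc, of the glycine cleavage system, was higher by 1.71 (SE 0.182, adjusted p = 1.34e-04), Chka, another choline kinase, was higher by 1.31 and Glyat, which conjugates glycine, was lower (-1.03). With the drug Gldc (-0.82) and Glyat (-0.69) fell. In null mice Gldc (1.14) and Glyat (0.63) were higher and Chka (-0.68) was lower.

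In the folate list 1 gene rose and 3 fell among 13. Aldh1l1, the formyltetrahydrofolate dehydrogenase, fell by 1.25 and was higher by 0.75 in null mice. Ftcd, of histidine-derived one-carbon units, fell by 0.60, a call lost with median centring (-0.58) and without treated wild-type mouse 3 (-0.54) or untreated mouse 2 (-0.58). Mthfd1l, a mitochondrial folate enzyme, rose by 1.38 and was lower in null (-0.98) and Clk/Clk mice (-1.29). Mthfd2l was higher by 0.72 in null mice but differed by -0.038 as the mean of its probe sets. Ggh (-1.12) and the folate transporter Slc46a1 (-1.42) were lower in Clk/Clk mice.

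Of 7 tested other genes of the methionine cycle 2 rose. They were Mmadhc, of cobalamin handling, by 1.63 (adjusted p = 2.38e-07), and Mtrr, which reactivates methionine synthase, by 0.64 (adjusted p = 4.94e-04), a call lost without treated wild-type mouse 2 (0.57) or untreated mouse 2 (0.53) and with quantile normalization (0.58). In null mice Mmadhc was lower (-1.02). Mtr, methionine synthase itself, was also lower (-0.66), from a dim signal of 5.30 to one of 4.64, under the filter level of 4.87 to 4.92, and without treated wild-type mouse 1 it differed by -0.45. Among 16 methyltransferases 5 rose and 3 fell, with Coq3, of ubiquinone synthesis, at 0.69, As3mt, which methylates arsenic, at 1.09, and Gamt, which makes creatine, at -1.98. In null mice Gamt (1.57) and Hnmt (1.17) were higher and Coq3 (-0.87) was lower, and in Clk/Clk mice Dnmt1 (-1.35) and Hnmt (-0.81) were lower. Of 11 polyamine and methionine salvage genes 3 rose, namely Mtap (1.60), which starts salvage of methylthioadenosine, Mri1 (0.94) of the same pathway, and Smox (1.19), spermine oxidase. Mtap (-0.84) and Smox (-1.27) were lower in null mice, and Adi1 (-0.77, adjusted p = 0.0356) was lower in Clk/Clk mice, a call lost with any of 5 arrays left out (adjusted p 0.0529 to 0.109).

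For each member the most similar other genes over the 12 arrays are listed, however near or far they lay. No reference distance was computed. Likeness was measured as the root mean square difference of log2 values after centring each gene on its own mean, and the 2 nearest genes were taken per member. For Sardh, whose SD over the 12 arrays was 0.673, these were Otc (0.114), an enzyme of the urea cycle, and Mug1 (0.123). For Gnmt (SD 0.655) they were Nlrp6 (0.125) and Amy1 (0.138). For Dmgdh (SD 0.355) they were Uroc1 (0.105), of histidine breakdown, and the fibrinogen gene Fga (0.105), and Fga was also nearest to Bhmt2 (0.121, SD 0.396). For Cth (SD 0.653) they were Fam210a (0.172) and Aass (0.221), of lysine breakdown, and for Cbs (SD 0.558) Tab2 (0.196) and Ppm1k (0.228). The nearest genes of Bhmt (SD 1.03) were Car14 (0.429) and Cdo1 (0.471), the latter from the cysteine and taurine list above. The nearest genes of Chdh (SD 0.425) were Xpo1 (0.127) and Fam136a (0.129), those of Ahcy (SD 0.36) Farp2 (0.0805) and Crcp (0.0931), and those of Mat1a (SD 0.144) Arhgap12 (0.0614) and Slc38a4 (0.0621).

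Markers of hepatocytes and of liver zones also differed between the groups, and their part in the results above was not tested. The mean level of 8 tested hepatocyte markers of 9 listed was 14 to 14.07 in untreated mice, 13.45 to 13.58 in treated wild type, 13.77 to 13.87 in null and 13.58 to 13.71 in Clk/Clk mice, and 3 of the 8 (Ahsg, Hnf4a and Tat) fell with the drug. Of 6 tested periportal markers 4 fell, with mean levels of 11.41 to 11.64, 9.85 to 10.11, 10.80 to 11.01 and 9.99 to 10.50 in the same order. Of 10 pericentral markers 3 fell (Cyp1a2, Oat and Slc1a2), with mean levels of 10.01 to 10.07, 8.85 to 9.15, 9.94 to 10.18 and 8.93 to 9.09. Against treated wild type, 2 hepatocyte, 3 periportal and 5 pericentral markers were higher in null mice and 1 periportal marker was lower. In Clk/Clk mice 2 periportal and 2 pericentral markers were higher, and 2 periportal and 1 pericentral were lower. Among markers of other cells, the drug comparison gave 1 rise among 8 for macrophages, 2 falls among 7 for sinusoidal endothelium, 1 fall among 7 for stellate cells, 2 rises among 4 for cholangiocytes (Krt23 and Sox9) and 1 fall among 4 for blood cells. In null mice 2 macrophage, 1 stellate and 2 cholangiocyte markers were lower than in treated wild type and 1 endothelial marker was higher. Clk/Clk mice had 3 of the 8 macrophage markers (median of the list -0.54) and 2 of the 4 blood cell markers (median -0.45) lower than in treated wild type. The mean level of the macrophage markers was 8.45 to 8.97 in treated wild type and 8.02 to 8.31 in Clk/Clk mice, and that of the blood cell markers 6.57 to 7.17 and 6.01 to 6.29. The part of these markers in the results was not tested.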

How the data were processed

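Liver RNA (250 ng per mouse) of 12 mice was labelled for Affymetrix arrays. The authors deposited log2 expression values per probe set. They were made with RMA, per the submitters' processing notes, whose version and settings are not given in the sources used here. Values ran from 2.25 to 15.0 and array medians from 5.45 to 5.50. Of 45101 probe sets, 34945 had 1 gene symbol, 932 had several, 9160 had none and 64 were controls. Probe sets with 1 symbol were kept where 3 or more arrays read at or above their own 40th percentile, and each gene took its brightest probe set. One fit with limma 3.58.1 in R 4.3.3 covered 4 group means over 13598 genes, with Benjamini-Hochberg adjustment over all of them. It was also run on simulated data with independent noise in each gene, which cannot speak to mice that vary together over several genes. No result here rests on that run. Intervals are 95%. The 10 genes, the 6 lists, the markers and the naming rule (up to 3 called genes per list and comparison by smallest adjusted p, the 2 nearest patterns per member) were chosen with earlier results of these data known, and no set test was run. Neighbouring genes on chromosome 13 were chosen after their values were seen. The main fit did not pair mice by number. Deviations of same-numbered mice of different groups correlated at -0.0924 to 0.125 over 18 pairs, of which 3 exceeded 0.1. Those of differently numbered mice of different groups correlated at -0.165 to 0.134. Whether same-numbered mice were weakly alike was not tested. Alternatives covered the filter, the probe set choice, the scaling, limma settings, a replicate block, the minimum fold and leaving out each array.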

Additional observations from a re-analysis of the deposited data

How the results depend on the processing

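Of 1128 member differences recomputed over 6 comparisons, 1073 kept their direction and their side of the threshold, 25 no longer passed, 22 newly passed and 8 changed sign. The cause of these changes was not tested, except where fewer probe sets, fewer samples or another minimum fold was the alternative itself. Without suffix probe sets Cbs and Chdh had none left, and the members called were 0 higher with the drug, 0 lower in null than in treated wild type, 0 higher in Clk/Clk than in untreated wild type and 0 higher in Clk/Clk than in null. The pathway genes called were then 9 higher with the drug and 3 lower in Clk/Clk mice. At a 2-fold minimum the members were 0 higher and 4 lower with the drug, 3 higher and 0 lower in null mice, 0 lower in null than in untreated mice and 0 higher in Clk/Clk than in untreated mice, and the pathway genes 9 higher and 8 lower with the drug and 8 higher and 5 lower in null mice. With no minimum fold the pathway genes were 26 higher and 24 lower with the drug, 26 and 24 in null mice and 12 and 12 in Clk/Clk mice, 4 members were lower in Clk/Clk than in untreated mice, and 4 were higher and 3 lower in Clk/Clk than in null mice. Averaging the probe sets of each gene left 1 member lower in null than in untreated mice. Array weights and a fit to only the 6 arrays compared each gave 2 members higher in Clk/Clk than in null mice, Cbs and Bhmt.

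Leaving out 1 array at a time, the members called lower with the drug numbered 7 to 8, those higher in null mice 6 to 7 and lower 0 to 1, those higher in Clk/Clk mice 6 to 7, those lower in null than in untreated mice 0 to 3, and those higher in Clk/Clk than in null mice 1 to 2. Differences near 0 changed sign. Mat1a in Clk/Clk against untreated mice ran from -0.024 to 0.088 and was -0.073 with quantile normalization, Ahcy in Clk/Clk against null mice ran from -0.061 to 0.059 and Dmgdh from -0.20 to 0.0029. Ggct gave -0.027 for the drug without suffix probe sets and Mthfd2l -0.038 in null mice with the mean of its probe sets. With the replicate number as a block, the members called were again 8 lower and 1 higher with the drug, 7 higher and 1 lower in null mice and 6 higher in Clk/Clk mice, and the block changed no member call in these 3 comparisons.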
